A study of Homo sapiens with 6 samples.

Results

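The genes described here are 47 transcriptional targets of p53, chosen by symbol from a list of p53 target genes and found as 47 of the 57232 genes in an RNA-seq table of IMR90 cells. TIGAR was listed as C12orf5 and SUSD6 under its older symbol KIAA0247. IMR90 cells are human fetal lung fibroblasts that are not transformed and are widely used to study senescence. Cells at passage 13 were infected with either ARID1B cDNA or an empty vector, selected with puromycin until day 4 and collected on day 6, with 3 libraries per group that the study calls biological replicates. Both groups were thus infected and drug selected, and the level of ARID1B per cell is not given in the sources used here. The comparison addresses how transcripts differ when these cells are given extra ARID1B, a subunit of the SWI/SNF chromatin remodelling complex. Levels are in FPKM, that is, fragments divided by gene length in kilobases and by library size, and values per library are given in the order of replicates 1, 2 and 3.

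p53 is a transcription factor that is kept low by the ubiquitin ligase MDM2 and stabilized by kinases that sense DNA damage and other stress. Once stable it binds a response element made of a pair of half-sites and turns on genes for growth arrest, DNA repair, metabolism and cell death, together with genes such as MDM2 and PPM1D that switch it off again. In fibroblasts this program is known for its part in senescence, where p21, the product of CDKN1A, holds the cell cycle.

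RefSeq promoter windows (GRCh38.p14, 250 bases before to 50 bases after a start) were matched by symbol for 36 of the 47 genes, in 56 windows. The windows were searched on both strands for the p53 response element, taken as a pair of 10-base half-sites of the p53 consensus with a spacer of 0 or 1 base, the C and G of each core kept and at most 2 mismatches. Of the 36 genes, 5 held one, compared with 184 of 27305 genes over all promoters of the table (0.674%). These 5 are printed because they show the letters that p53 is known to bind, with the half-sites in capitals and the spacer and 4 flanking bases on each side in lower case, 5′ to 3′ on the plus strand.
MDM2: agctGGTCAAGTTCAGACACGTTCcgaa
DDB2: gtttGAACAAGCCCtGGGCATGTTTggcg
FAS: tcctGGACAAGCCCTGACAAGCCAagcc
AEN: agccGGGCTTGCCCGGGCATGTGGgagc
HSPA4L: atggAAACATGTTTCCACATGTTCcgtt
With the flanks, the MDM2 element lies at chr12:68808919-68808946, the DDB2 element at chr11:47214975-47215003 and the FAS element at chr10:88991305-88991332. The AEN element lies at chr15:88621302-88621329 and the HSPA4L element at chr4:127783505-127783532. The DDB2 element has 0 mismatches and runs from base 5 to base 25 after the start, counting the start as 0. The other 4 have 2 mismatches each and begin at base -122 (FAS), -94 (MDM2), -34 (AEN) and -14 (HSPA4L) from the start. A match is a description of the letters and not a bound site, and genes with no match here can hold elements outside the window or with longer spacers.

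ARID1B itself stood at 32.5, 21.0 and 28.3 FPKM in the ARID1B libraries, against 2.29, 1.31 and 2.05 FPKM in the vector libraries, and the ARID1B values include any reads from the cDNA. On the log2 scale the difference was 3.29 (standard error, SE, 0.208, adjusted p = 0.0255 from limma). With 1 library left out its adjusted p ran from 0.0131 to 0.323, and it passed only without vector replicate 2. Low FPKM values step in whole reads, which put the library totals at 70022493 to 91924514 reads or fragments for ARID1B and 63386813 to 90548577 for the vector. No tested p53 target had fewer than 510 reads in a library. All 10 fibroblast markers listed had a mean of at least 1 FPKM, and none of the listed epithelial, endothelial, blood or smooth muscle markers did. Vector replicate 2 stood apart, with a score of 48.5 on the first principal component (63.8% of the variance), where the other 5 libraries ran from -20.0 to 3.63. ARID1B replicate 3 lay between ARID1B replicates 1 and 2 in 69.2% of genes (30 of the 44 p53 targets tested), and vector replicate 3 lay between vector replicates 1 and 2 in 85% (38 of 44). Whether replicates 3 are independent samples was not tested.

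None of the p53 targets passed the test in either direction. Of the 47, 44 had a mean of at least 1 FPKM and were tested with limma, and 0 were called higher (0.0288% of all 10416 genes tested were) and 0 lower (0% of all genes). At an unadjusted p under 0.05, 4 were higher (4.64% of all genes) and 4 lower (5.94%). The 4 higher were PMAIP1, C12orf5, POLH and TNFRSF10B, and the 4 lower were FDXR, DDB2, TP53I3 and PHLDA3. The smallest adjusted p was 0.272, for PMAIP1. The voom version of limma on the recovered reads called 0 p53 targets, while it called 0.0096% of all genes higher and 0% lower. The limma fit without both libraries numbered 3 called 0 of all 10416 genes in either direction. ARID1B itself had an adjusted p of 0.838 in that fit, so its 0 p53 targets say nothing about these genes. The median log2 change of the p53 targets there was 0.15. The log2 change is the difference between group means of log2(FPKM + 1), ARID1B minus vector, a scale on which changes of weakly expressed genes appear too small.

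Differences between the groups were small and ran in both directions. Log2 changes were positive for 27 of the 44 genes (61.4%, against 47.6% of all genes) and negative for 17. They ran from -0.43 for BAX to 0.72 for PMAIP1 with a median of 0.08, against a median of -0.02 over all genes. In 35 of the 44 the 95% interval lay within 1 unit of 0 on log2(FPKM + 1). For weakly expressed genes 1 unit on this scale is more than a 2-fold change in FPKM. The intervals of BTG2, TP53INP1, PLK2, SERTAD1, TRIM22, PMAIP1, DRAM1, RRM2B and CSF1 reached further. On this scale 2 genes, PMAIP1 and TRIM22, were at 1.5-fold or more in either direction (3.9% of all genes). The groups did not overlap in 13 genes, 8 of them higher with ARID1B (9.44% of all genes) and 5 lower (11.1% of all genes). Without vector replicate 2 the tested genes were split 23 positive to 21 negative (47.8% of all genes positive) with a median of 0.03. Again limma called 0, while 1.2% of all genes were then called higher and 1.91% lower. With unadjusted p-values under 0.05, 7 were higher (10% of all genes) and 9 lower (13.7%). The groups then did not overlap in 9 genes that were higher (18.8% of all genes) and 12 that were lower (23.9%).

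**Figure D1:**
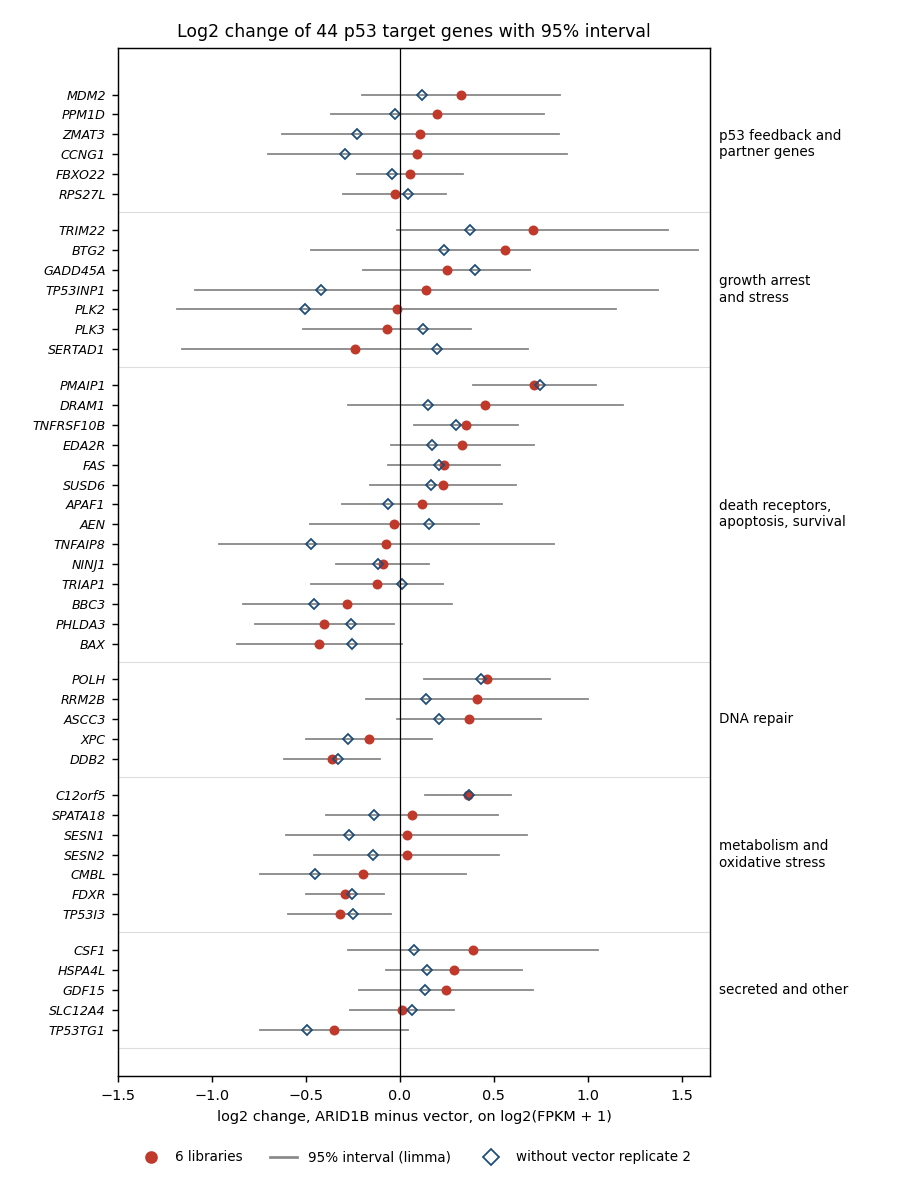
Log2 change of the 44 tested p53 target genes (horizontal axis, ARID1B minus vector on log2(FPKM + 1)), with 1 row per gene, grouped by role. Filled circles give the change over 6 libraries with its 95% interval from limma, and open diamonds the change without vector replicate 2. Points lie on both sides of 0, from -0.43 for BAX to 0.72 for PMAIP1, and the diamonds of TP53INP1, PLK2 and CCNG1 lie well to the left of their circles.

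Among genes that act back on p53 or work beside it, 0 were called and the groups overlapped in each gene. Of 7 genes, 6 were tested, 5 had positive log2 changes, and the median was 0.10. MDM2, the ligase that degrades p53, stood at 5.68, 8.13 and 7.06 FPKM in ARID1B libraries, against 6.73, 3.71 and 5.85 FPKM in vector libraries. Its groups overlapped, because the first vector library was above the first ARID1B library and only vector replicate 2 was clearly low. Its log2 change was 0.33 with an interval from -0.20 to 0.85 (adjusted p = 0.644). PPM1D encodes WIP1, a phosphatase that removes activating phosphates from p53, and had 3.14, 4.88 and 3.88 FPKM with ARID1B, against 4.30, 2.13 and 3.74 FPKM with the vector. Here too the lowest value was vector replicate 2 and the groups overlapped, with a log2 change of 0.20 (adjusted p = 0.775). CCNG1, cyclin G1, which recruits a phosphatase to MDM2, had 25.9, 30.4 and 30.7 FPKM with ARID1B, against 38.3, 15.5 and 33.3 FPKM with the vector. The 3 ARID1B values lay between the low vector replicate 2 and the higher vector replicates 1 and 3, and CCNG1 was at 0.09 on the log2 scale (SE 0.330, adjusted p = 0.927).

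MDM4, the partner of MDM2 that masks the activation domain of p53, was under the minimum for the test. It had 0.542, 1.01 and 0.710 FPKM in ARID1B libraries and 0.812, 0.696 and 0.801 FPKM in vector libraries, with groups that overlapped. The remaining genes of this kind were ZMAT3, an RNA-binding protein, FBXO22, an F-box protein, and RPS27L, a ribosomal protein paralog. Their log2 changes were 0.11, 0.05 and -0.03, and reads of RPS27L may be shared with its near copy RPS27. Without vector replicate 2 the log2 change of MDM2 was 0.12, that of PPM1D -0.03 and that of CCNG1 -0.30. ZMAT3 was then at -0.23, FBXO22 at -0.04 and RPS27L at 0.045, so that 2 of the 6 were positive and 4 negative. Of the genes tested here, only MDM2 thus had a direction that did not rest on that library.

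Genes for growth arrest and stress signalling varied widely between libraries of the same group. Of 8 genes, 7 were tested, 4 had positive log2 changes, and 0 were called. BTG2, an antiproliferative protein that acts on mRNA deadenylation, had 4.96, 14.7 and 7.22 FPKM with ARID1B, against 7.13, 2.96 and 6.47 FPKM with the vector. ARID1B replicate 2 alone was high and vector replicate 2 alone was low, and the other 4 libraries were mixed. The difference between groups was 0.56 (log2) with an interval from -0.47 to 1.59 (adjusted p = 0.681). PLK2, a stress-induced polo-like kinase, ran at 14.1, 32.4 and 18.2 FPKM in ARID1B libraries, against 30.9, 9.91 and 27.9 FPKM in vector libraries. It was high in ARID1B replicate 2 and in vector replicates 1 and 3, and its log2 change was -0.02 (SE 0.484, adjusted p = 0.991). TP53INP1, which promotes autophagy and p53 phosphorylation, was likewise high in those 3 libraries, with 7.56, 15.9 and 10.7 FPKM with ARID1B, against 16.5, 3.96 and 13.5 FPKM with the vector. Both extremes of TP53INP1 were vector libraries, and the log2 change was 0.14 (SE 0.511, adjusted p = 0.927). Without vector replicate 2 BTG2 was at 0.23, PLK2 at -0.51 and TP53INP1 at -0.42.

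GADD45A and PLK3 varied less. GADD45A, a stress protein that binds PCNA and activates p38 and JNK signalling, had 16.9, 23.4 and 19.1 FPKM with ARID1B, against 14.1, 20.4 and 15.3 FPKM with the vector. In each group replicate 2 was the highest, and vector replicate 2 was above 2 of the ARID1B libraries, so the groups overlapped. GADD45A was at 0.25 on the log2 scale (adjusted p = 0.675), or 0.40 without vector replicate 2. PLK3, another stress-responsive polo-like kinase, had 4.91, 4.42 and 4.47 FPKM with ARID1B, against 3.78, 6.66 and 4.53 FPKM with the vector. Vector libraries held both the lowest and the highest PLK3 value, and the log2 change was -0.07 (adjusted p = 0.897).

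TRIM22, an interferon-inducible TRIM family protein, was the single gene of this group whose libraries did not overlap. It had 7.93, 10.9 and 8.81 FPKM with ARID1B, against 7.45, 2.92 and 6.23 FPKM with the vector, so that the lowest ARID1B and the highest vector value were close. For TRIM22 the log2 change was 0.71 (SE 0.299, adjusted p = 0.480) and 0.38 without vector replicate 2. SERTAD1, a cofactor of CDK4 and E2F, went the other way in vector replicate 2, with 7.72, 11.3 and 8.32 FPKM with ARID1B, against 6.92, 20.5 and 8.63 FPKM with the vector. Its log2 change was -0.24, and 0.20 without that library. PRDM1, a transcriptional repressor, was just under the minimum for the test at 0.896, 1.79 and 1.11 FPKM in ARID1B libraries and 0.552, 0.966 and 0.641 FPKM in vector libraries, with groups that overlapped.

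**Figure D2:**
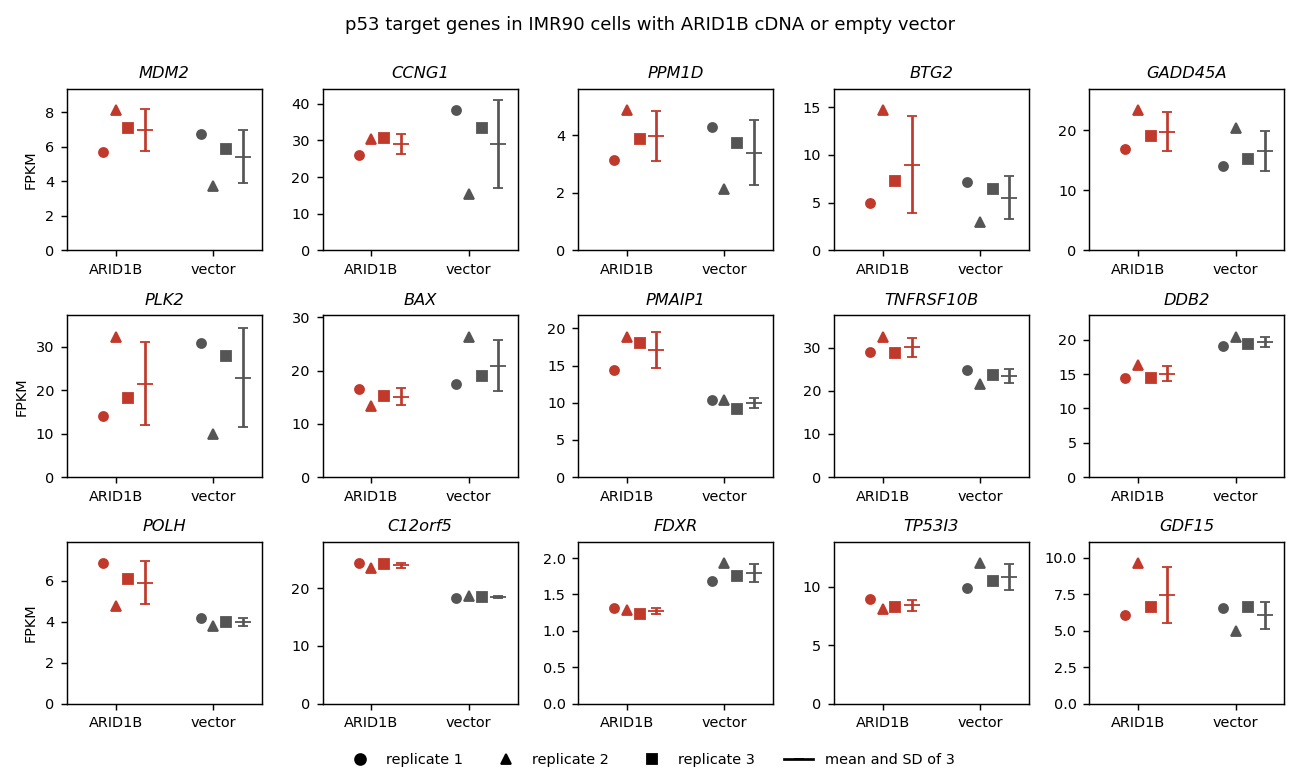
FPKM (vertical axes, from 0) of 15 p53 target genes in each library, 1 panel per gene, ARID1B libraries in red on the left and vector libraries in grey on the right of each panel. Circles, triangles and squares are replicates 1, 2 and 3, and bars give the mean and SD of 3. PMAIP1, C12orf5, POLH and TNFRSF10B are higher in all 3 ARID1B libraries, DDB2, FDXR, TP53I3 and BAX are lower in all 3, and in CCNG1, BTG2 and PLK2 at least 1 triangle lies far from the other libraries of its group.

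Genes for cell death and survival split evenly, with 7 positive and 7 negative log2 changes among the 14 of 15 that were tested, and 0 were called. The highest log2 change, among these and all 44 tested of the 47 p53 targets, was that of PMAIP1. It encodes NOXA, a BH3-only protein that neutralizes MCL1, and had 14.4, 18.9 and 18.0 FPKM with ARID1B, against 10.3, 10.4 and 9.19 FPKM with the vector. All ARID1B libraries were above all vector libraries, with means of 17.1 ± 2.38 and 9.97 ± 0.681 FPKM (SD, n = 3 each), a ratio of 1.72. This was a log2 change of 0.72 (SE 0.135, unadjusted p = 0.00155, adjusted p = 0.272 from limma). It was 0.75 without vector replicate 2, where the adjusted p was 0.0522.

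BAX, which permeabilizes mitochondria downstream of BH3-only proteins, had a log2 change on the other side of 0. It had 16.6, 13.4 and 15.2 FPKM with ARID1B, against 17.4, 26.4 and 18.9 FPKM with the vector. Every ARID1B library was below every vector library, but the first of each group were close and vector replicate 2 was far above the rest. BAX was at -0.43 on the log2 scale (SE 0.182, adjusted p = 0.480), at -0.26 without vector replicate 2 and at -0.17 after a correction for GC content and gene length. BBC3 encodes PUMA, another BH3-only protein, and had 1.25, 2.60 and 1.53 FPKM with ARID1B, against 2.69, 1.597 and 2.83 FPKM with the vector. The groups overlapped, as ARID1B replicate 2 and vector replicate 2 each lay with the other group, and the log2 change was -0.28 (adjusted p = 0.702), or -0.46 without vector replicate 2 and 0.07 after the correction. These 3 p53 targets of the mitochondrial death pathway thus lay on both sides of 0.

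The 3 TNF receptor family members tested in this set of genes all had positive log2 changes, none of them called. TNFRSF10B, the TRAIL receptor DR5, had 28.95, 32.6 and 28.7 FPKM with ARID1B, against 24.8, 21.7 and 23.7 FPKM with the vector. The groups did not overlap, and the log2 change was 0.35 (SE 0.114, adjusted p = 0.390). FAS, the receptor of FAS ligand, had 5.91, 7.75 and 7.14 FPKM with ARID1B, against 6.00, 5.45 and 5.70 FPKM with the vector. ARID1B replicate 1 lay just under vector replicate 1, so the groups overlapped, with a log2 change of 0.23 (adjusted p = 0.559). EDA2R, a receptor of ectodysplasin A2, did not overlap, at 4.58, 4.74 and 4.63 FPKM with ARID1B and 4.25, 2.59 and 3.80 FPKM with the vector. Its log2 change was 0.33 (adjusted p = 0.522), and 0.17 without vector replicate 2. TNFRSF10C, a TRAIL receptor with no death domain, was under the minimum for the test, at 0.891, 0.924 and 0.944 FPKM with ARID1B and 0.684, 0.361 and 0.696 FPKM with the vector, which did not overlap.

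Of the other genes in this group, PHLDA3, which blocks AKT at the membrane, was lower in every ARID1B library. It had 19.9, 17.2 and 18.5 FPKM with ARID1B, against 21.7, 30.3 and 23.2 FPKM with the vector. PHLDA3 was at -0.40 on the log2 scale (SE 0.153, adjusted p = 0.437), or -0.26 without vector replicate 2, the library with the highest value, and -0.20 after the GC content and length correction. In the remaining 7 genes the groups overlapped, and log2 changes ran from -0.12 for TRIAP1, a mitochondrial survival factor, to 0.45 for DRAM1, a lysosomal protein of autophagy, which was at 0.15 without vector replicate 2. APAF1, the scaffold of the apoptosome, was at 0.12, SUSD6 at 0.23, the nuclease AEN at -0.03, TNFAIP8 at -0.07 and the membrane rupture protein NINJ1 at -0.09.

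Of 5 DNA repair genes, all tested, 3 had positive log2 changes and 0 were called, with POLH and DDB2 on opposite sides. POLH, the translesion polymerase eta that copies past ultraviolet lesions, had 6.86, 4.77 and 6.09 FPKM with ARID1B, against 4.16, 3.79 and 3.98 FPKM with the vector. All ARID1B libraries were above all vector libraries, with ARID1B replicate 2 the nearest to them. The difference was 0.46 on the log2 scale (SE 0.139, adjusted p = 0.356). DDB2, the damage sensor of nucleotide excision repair, whose promoter holds the response element with 0 mismatches, had 14.5, 16.3 and 14.4 FPKM with ARID1B, against 19.1, 20.5 and 19.4 FPKM with the vector. Every ARID1B library was lower, and the means of 15.1 ± 1.07 and 19.7 ± 0.778 FPKM (SD, n = 3 each) put it at -0.36 on the log2 scale (SE 0.106, adjusted p = 0.349). Neither difference rested on vector replicate 2, without which POLH was at 0.43 and DDB2 at -0.33.

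XPC, which finds helix distortions in the same repair pathway as DDB2, had 7.73, 8.82 and 7.40 FPKM with ARID1B, against 10.2, 7.59 and 9.56 FPKM with the vector. The groups overlapped through vector replicate 2 alone, and the log2 change was -0.16 (adjusted p = 0.711), or -0.28 without that library. RRM2B, the p53-inducible subunit of ribonucleotide reductase, had 12.4, 12.5 and 14.4 FPKM with ARID1B, against 12.8, 6.26 and 10.8 FPKM with the vector. Again only vector replicate 2 was far from the rest, and the log2 change of 0.41 (adjusted p = 0.607) was 0.14 without it. ASCC3, a helicase of alkylation repair, did not overlap at 10.1, 9.13 and 10.3 FPKM with ARID1B and 8.59, 5.77 and 8.15 FPKM with the vector, and had a log2 change of 0.37 (adjusted p = 0.490). ASCC3 was at 0.21 without vector replicate 2 and at 0.16 after the GC content and length correction.

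Of 7 genes for metabolism and oxidative stress, all tested, 4 had positive log2 changes and 0 were called. C12orf5 had the smallest SD within groups among the 44 tested of the 47 p53 targets. It encodes TIGAR, a phosphatase that lowers glycolytic flux and favours NADPH production, and had 24.3, 23.5 and 24.1 FPKM with ARID1B, against 18.3, 18.6 and 18.4 FPKM with the vector. Within each group the libraries were close together and the groups were far apart, with means of 24.0 ± 0.432 and 18.4 ± 0.167 FPKM (SD, n = 3 each), a ratio of 1.30. The log2 change of C12orf5 was 0.36 (SE 0.0949, unadjusted p = 0.00785, adjusted p = 0.318 from limma), and 0.37 without vector replicate 2. FDXR, the mitochondrial reductase that feeds electrons to ferredoxin, had 1.31, 1.29 and 1.23 FPKM with ARID1B, against 1.69, 1.93 and 1.75 FPKM with the vector. It was lower in every ARID1B library, and was at -0.29 on the log2 scale (SE 0.0851, adjusted p = 0.349), or -0.05 after correction for GC content and length. TP53I3, a quinone oxidoreductase tied to reactive oxygen species, had 8.91, 8.07 and 8.22 FPKM with ARID1B, against 9.84, 11.95 and 10.5 FPKM with the vector. Here as well the groups did not overlap, and the log2 change was -0.32 (SE 0.113, adjusted p = 0.419), or -0.11 after the same correction.

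The sestrins, which restrain mTORC1 and protect against oxidants, had log2 changes near 0. SESN1 had 2.85, 3.47 and 3.31 FPKM with ARID1B, against 4.38, 1.68 and 3.76 FPKM with the vector. SESN2 had 9.92, 14.0 and 10.7 FPKM with ARID1B, against 13.2, 8.45 and 12.3 FPKM with the vector. Both overlapped, with vector replicate 2 the lowest of all 6 libraries, and both had a log2 change of 0.04 (adjusted p of 0.966 and 0.957), which turned to -0.27 and -0.15 without that library. CMBL, a cysteine hydrolase, had 7.07, 7.12 and 7.19 FPKM with ARID1B, against 10.8, 5.53 and 9.45 FPKM with the vector. ARID1B libraries of CMBL were nearly identical and lay between vector replicate 2 and the other vector libraries, with a log2 change of -0.20 (adjusted p = 0.771), or -0.45 without vector replicate 2. SPATA18, a regulator of mitochondrial quality, was at 0.06.

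Of 5 secreted and other targets, 4 had positive log2 changes and 0 were called. GDF15, a stress cytokine of the TGF-beta family, had 6.06, 9.63 and 6.63 FPKM with ARID1B, against 6.53, 4.997 and 6.605 FPKM with the vector. ARID1B replicate 2 was high, ARID1B replicate 3 hardly differed from the highest vector libraries and ARID1B replicate 1 lay among them. GDF15 had a log2 change of 0.25 (adjusted p = 0.686), which was 0.13 without vector replicate 2 and 0.57 after the GC content and length correction. CSF1, the growth factor of macrophages, had 6.66, 8.26 and 6.95 FPKM with ARID1B, against 7.22, 3.08 and 6.50 FPKM with the vector. Vector replicate 2 was low and the rest overlapped, and the log2 change of 0.39 (adjusted p = 0.659) was 0.07 without it. HSPA4L, an HSP110 family chaperone, was higher in every ARID1B library though replicate 1 hardly differed, at 1.730, 2.17 and 1.93 FPKM with ARID1B against 1.728, 0.970 and 1.599 FPKM with the vector, and had a log2 change of 0.29 (adjusted p = 0.556). HSPA4L was at 0.14 without vector replicate 2 and at 0.05 after the GC content and length correction. SLC12A4, a potassium chloride cotransporter, was at 0.01 and the noncoding RNA TP53TG1 at -0.35 (adjusted p = 0.514), or -0.49 without vector replicate 2. The 5 genes with a response element in the promoter window lay on both sides of 0: HSPA4L was at 0.29, MDM2 at 0.33, FAS at 0.23, AEN at -0.03 and DDB2 at -0.36.

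Much of the variation among the p53 targets ran between libraries of the same group. In 24 of the 44 genes vector replicate 2 was the lowest vector library and ARID1B replicate 1 the lowest ARID1B library (54.5%, against 24.3% of all genes), and in 9 both were the highest (20.5%, against 33.8%). Vector replicate 2 was the lowest of all 6 libraries in 26 genes (59.1%, against 37.5% of all genes). The median deviation from a gene's own mean was -0.08, 0.15 and 0.03 on the log2 scale in ARID1B libraries and 0.09, -0.29 and 0.01 in vector libraries, whereas over all genes it was between -0.04 and 0.02. The genes with the widest spread within groups were TP53INP1, PLK2, BTG2, SERTAD1 and TNFAIP8, with SDs of 0.78, 0.73, 0.64, 0.57 and 0.56 (log2). These 5 had SDs of at least 0.5 (11.4%, against 7.47% of all genes). Across the 44 genes the median SD within groups was 0.24, against 0.20 over all genes.

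**Figure D3:**
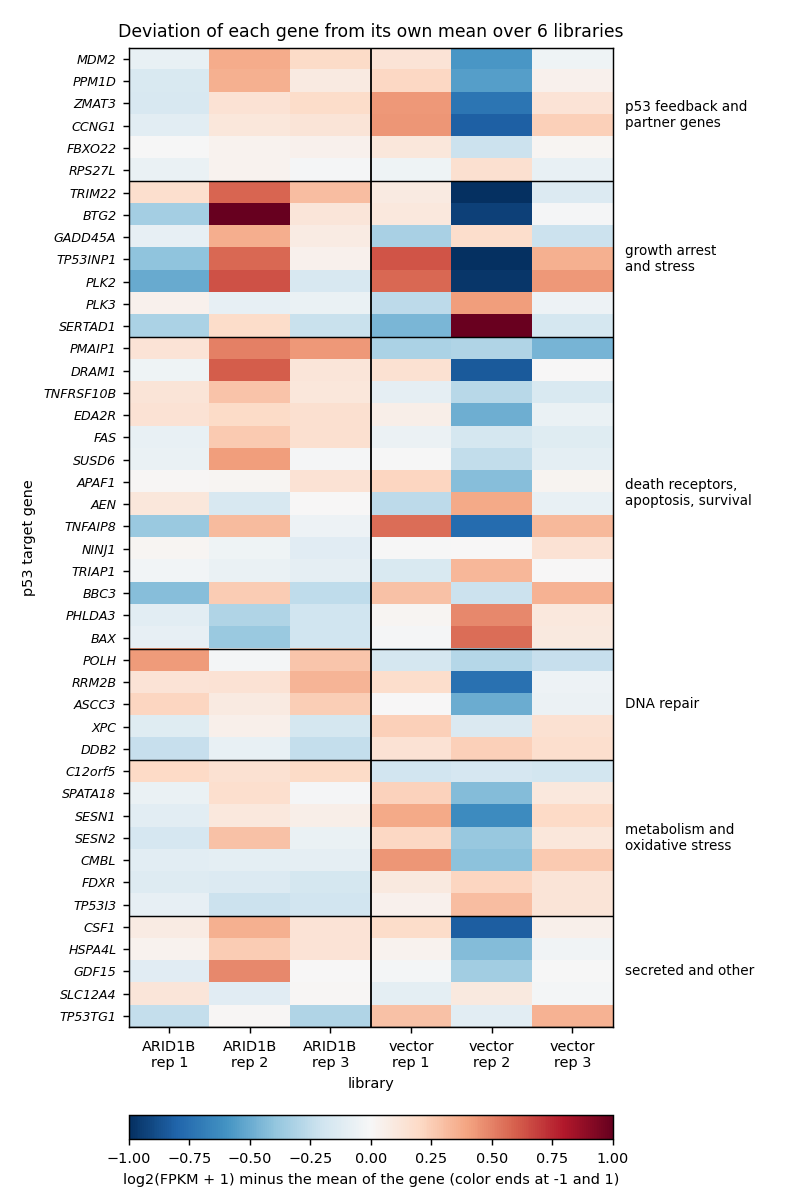
Deviation of each of the 44 tested p53 target genes (rows, grouped by role) from its own mean over 6 libraries, in log2(FPKM + 1) units, red above and blue below the mean, with ARID1B libraries left of the line and vector libraries right of it. The column of vector replicate 2 is mostly blue, with a median deviation of -0.29, and SERTAD1, BAX and PHLDA3 are red there. PMAIP1 and C12orf5 are red in all 3 ARID1B libraries and blue in all 3 vector libraries.

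In PLK2, vector replicate 2 was at 0.337 of the mean of the other vector libraries, and ARID1B replicate 2 was at 2.29 times ARID1B replicate 1. The corresponding ratios were 0.264 and 2.11 for TP53INP1 and 0.436 and 2.96 for BTG2. MKI67, a marker of cycling cells, had 9.73, 3.52 and 8.14 FPKM with ARID1B and 2.83, 6.49 and 3.38 FPKM with the vector. It was thus high in ARID1B replicates 1 and 3 and in vector replicate 2. The groups of MKI67 overlapped, with a log2 change of 0.61 (SE 0.395, adjusted p = 0.636 from limma), or 0.90 without vector replicate 2. The log2 changes also went with base composition. Across 10195 genes the rank correlation of the log2 change with GC content was -0.55 and with gene length 0.40, and without vector replicate 2 -0.27 and 0.02. Across the 44 p53 targets the rank correlation with GC content was -0.47. Genes are not independent replicates, and the part of these differences in the levels of p53 targets was not tested. In bulk RNA, moreover, fewer cells that express a gene and less RNA per cell cannot be told apart.

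**Figure D4:**
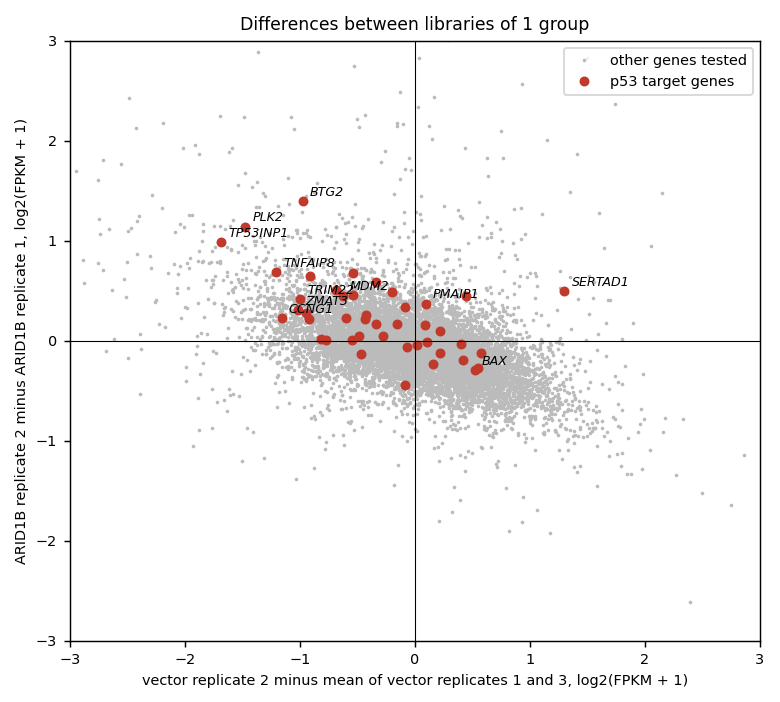
Each point is a gene, with the log2 difference of vector replicate 2 from the mean of vector replicates 1 and 3 on the horizontal axis and the log2 difference of ARID1B replicate 2 from ARID1B replicate 1 on the vertical axis. Red points are the 44 tested p53 targets and grey points other genes tested, and 10 genes fall outside the axes, which end at 3. BTG2, PLK2, TP53INP1 and TNFAIP8 lie at the upper left, and SERTAD1 at the right.

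With the GC content and length correction and vector replicate 2 left out, a setting chosen after the data had been seen, 1 p53 target passed in each direction, where 1.89% of all genes were called higher and 1.94% lower. PMAIP1 was higher at 0.68 (adjusted p = 0.0362) and CMBL lower at -0.51 (adjusted p = 0.0471). Over the 6 libraries their adjusted p-values from limma were 0.272 and 0.771. Their highest adjusted p, 0.999, came from the fit without both libraries numbered 3, which called 0 of all genes and put ARID1B at 0.838. CDKN1A, which encodes p21, also passed in the setting chosen after the data had been seen, at 0.46 (adjusted p = 0.0487). CDKN1A too had an adjusted p of 0.999 without both libraries numbered 3. It stood at 125, 123 and 118 FPKM in ARID1B libraries, against 90.5, 115 and 95.8 FPKM in vector libraries. CDKN1A was the most abundant p53 target described here, and its groups did not overlap, though vector replicate 2 came near the ARID1B libraries. Over the 6 libraries its log2 change was 0.29 (SE 0.132, adjusted p = 0.509).

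Among listed genes upstream of p53 or acting with it, none was called. Of 37 listed, 33 were tested, 0 were called in either direction by limma or by voom, and the median log2 change was -0.02. An unadjusted p under 0.05 was reached by 2 that were higher (4.64% of all genes) and 1 that was lower (5.94%). Without vector replicate 2, 1 was called lower, where 1.91% of all genes were. SETD7, a lysine methyltransferase that acts on p53, had 18.0, 12.4 and 18.2 FPKM with ARID1B, against 12.3, 7.11 and 10.99 FPKM with the vector. The groups just failed to overlap, and the log2 change was 0.64 (adjusted p = 0.429). DAXX, a histone chaperone that also binds MDM2, was at -0.33 (adjusted p = 0.431), and ATR, the kinase of replication stress, at 0.23 (adjusted p = 0.435). After the GC content and length correction DAXX was at -0.22 and ATR at 0.02.

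Of 75 other listed p53 targets, 56 were tested and 0 were called in either direction by limma or by voom, with a median log2 change of -0.02. At an unadjusted p under 0.05 there were 3 higher (4.64% of all genes) and 4 lower (5.94%). The smallest p-values belonged to DDIT3, RAP2B and FHL2, each steady within its groups. DDIT3, the stress transcription factor CHOP, had 3.33, 3.43 and 3.14 FPKM with ARID1B, against 5.26, 5.04 and 5.01 FPKM with the vector. RAP2B, a small GTPase, had 5.93, 5.39 and 5.85 FPKM with ARID1B, against 8.10, 9.25 and 8.25 FPKM with the vector. Both were lower in all ARID1B libraries, with log2 changes of -0.51 (adjusted p = 0.264) and -0.50 (adjusted p = 0.285). FHL2, a LIM domain cofactor, was higher in all of them at 23.8, 24.3 and 23.3 FPKM, against 16.6, 17.7 and 16.8 FPKM with the vector, a log2 change of 0.46 (adjusted p = 0.285). The fit without vector replicate 2 called 2 of the 56 higher (1.2% of all genes) and 3 lower (1.91%). DDIT3, RAP2B and FHL2 were among them. Their adjusted p-values from limma were 0.0376, 0.0452 and 0.0399 in that fit. Each was at 0.999 without both libraries numbered 3, a setting that called 0 of all genes. IGFBP3, an IGF binding protein, and DDIT4, an mTORC1 inhibitor, passed without vector replicate 2 too, at 1.12 and -1.20. Over all 6 libraries, however, they lay at 0.74 and -0.24.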

How the data were processed

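RNA-seq was measured in 6 IMR90 libraries, 3 with ARID1B cDNA and 3 with empty vector, grouped by the sample labels. The authors deposited FPKM values for 57232 genes. Their processing notes list the build hg19 and the tools TopHat2 (2.0.11), DESeq2 and HTSeq (0.5.3p9) without the role of each, and whether counting used the strand is not given in the sources used here. Reads behind each FPKM value were recovered from its steps, and all 10416 genes tested came out whole within 0.002 reads in the 6 libraries. The median gene tested had 2283 to 3352.5 reads per library, so counting error was small beside the spread between libraries.

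Genes averaging 1 FPKM or more over the 6 libraries were tested on log2(FPKM + 1) with limma 3.58.1 (R 4.3.3), two-sided with a variance trend, Benjamini-Hochberg adjustment over all genes tested and a threshold of 0.05. With 3 against 3 libraries, an exact permutation test of 1 gene cannot go below 0.1. The limma fit, the read recovery and the promoter search were checked on simulated data with known answers. Noise in the limma check was independent between genes and libraries, so the check does not cover deviations that genes share here. Alternatives were another pseudocount, filter and scaling, no trend, the replicate number as a block, a correction for GC content and length (splines with 5 degrees of freedom, 97.9% of genes matched in GENCODE 29), each library left out, both libraries numbered 3 left out, a 1.5-fold minimum and voom on recovered reads. The members and lists were chosen with earlier results of these data known. Genes named were 25 p53 targets chosen by name, the 5 with the smallest p, each whose groups did not overlap, each past the threshold in any setting, those under 1 FPKM, CDKN1A, ARID1B and the 3 smallest p of each other list. IGFBP3 and DDIT4 were named after their values were seen. A gene of the regulator list is not reported here by name. Same-numbered libraries did not deviate together, so the numbers were not used as pairs. The endothelial list was used with 2 markers. Promoter windows came from RefSeq (GRCh38.p14), a newer build than the expression table, and no coordinates of the table were used. Plots were made with Python 3.11.15 and matplotlib 3.10.9.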

Additional observations from a re-analysis of the deposited data

How the results depend on the processing

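The count of p53 targets past the threshold stayed at 0 in each direction under every alternative set at the start, leaving out a library included. Only with the GC content and length correction and vector replicate 2 left out together, added after seeing the data, were 1 higher and 1 lower. There the regulators had 0 higher and 2 lower with a median of -0.047, other targets 3 higher and 2 lower, and all genes 193 higher and 198 lower. The count of all genes called higher was 3 in the 6 libraries, 0 with no filter, with the replicate block and without both libraries numbered 3, 5 with the GC content and length correction, and 1 with voom. Leaving out 1 library gave 0 to 125 higher and 0 to 199 lower, the highest of each without vector replicate 2. The median of the p53 targets ran from 0.029 (without vector replicate 2) to 0.245 (without vector replicate 1), that of regulators from -0.093 to 0.016 and that of other targets from -0.032 to 0.028. In those fits 0 to 1 regulators were lower and 0 to 2 other targets higher and 0 to 3 lower, the upper counts without vector replicate 2. With a mean of at least 5 FPKM the medians of regulators and other targets were 0.017 and 0.051, the GC content and length correction gave regulators -0.052, and without both libraries numbered 3 other targets were at 0.019.

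Single genes changed direction as follows. Quantile normalization put RPS27L at 0.016. The GC content and length correction put FBXO22 at -0.186, ZMAT3 at -0.111, PLK3 at 0.16, TP53INP1 at -0.038, BBC3 at 0.066, APAF1 at -0.065, NINJ1 at 0.101, SESN1 at -0.049 and SPATA18 at -0.044. Without both libraries numbered 3, PLK2 was at 0.27 and TNFAIP8 at 0.078. With both the correction and vector replicate 2 left out, PPM1D was at -0.068, CCNG1 at -0.37, RPS27L at 0.016, FBXO22 at -0.066, ZMAT3 at -0.25, PLK3 at 0.23, TP53INP1 at -0.46, SERTAD1 at 0.22, APAF1 at -0.091, AEN at 0.16, SESN1 at -0.33, SESN2 at -0.050 and SPATA18 at -0.19. With 1 library left out, the ranges that crossed 0 were AEN -0.17 to 0.15, APAF1 -0.065 to 0.256, CCNG1 -0.30 to 0.33, FBXO22 -0.040 to 0.12, PLK2 -0.51 to 0.27, PLK3 -0.22 to 0.12, PPM1D -0.028 to 0.35, RPS27L -0.073 to 0.045 and SERTAD1 -0.53 to 0.20. They were also SESN1 -0.27 to 0.23, SESN2 -0.15 to 0.15, SLC12A4 -0.045 to 0.073, SPATA18 -0.14 to 0.19, TNFAIP8 -0.47 to 0.19, TP53INP1 -0.42 to 0.49, TRIAP1 -0.23 to 0.013 and ZMAT3 -0.23 to 0.35. The cause was not tested. Median-ratio rescaling, the pseudocount and the trend changed no direction.

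Same-numbered libraries deviated in opposite directions, with correlations of -0.46, -0.43 and -0.17 for replicates 1, 2 and 3, so no pairing was used. With the replicate block 0 p53 targets and 0 of all genes passed, ARID1B included. Each p53 target tested had at least 510 reads in every library.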
